A study of Mus musculus with 24 samples.

Results

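The 9 genes described here encode the myostatin, Gdf11 and activin signalling system: the ligands Mstn, Gdf11, Inhba and Inhbb, the secreted inhibitors Fst and Fstl3, and the receptors Acvr2a, Acvr2b and Acvr1b. They were chosen by name, as members of this pathway, from the 24537 genes counted, with earlier results of these data known. All 9 passed the filter on low counts. RNA was sequenced from whole EDL and SOL muscles of 2-month-old mice, with 24 libraries in 12 groups of 2, one group for each muscle, genotype and duration of Dox. Cre+ mice were Acta1-Cre+/4Fhet and Cre- mice were Acta1-Cre-/4Fhet, and both carried the Dox-inducible cassette of Pou5f1 (Oct4), Sox2, Klf4 and Myc (OSKM) together with an rtTA gene that stays silent until Cre removes a stop signal. Acta1-Cre is active in myofibers. Both genotypes received Dox in the drinking water at 1 mg/ml, and muscles were taken after 8.5, 5.5 or 2.5 days, so the controls had the cassette and Dox but no Cre. The study's own comparisons use 2.5 and 8.5 days, and its methods leave out samples without OSKM overexpression. In whole muscle RNA, fewer cells of a type and less RNA per cell cannot be told apart.

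Myostatin and Gdf11 are closely related secreted ligands of the TGF-beta superfamily, and the activins are dimers of the subunits that Inhba and Inhbb encode. All of them bind the type II receptors encoded by Acvr2a and Acvr2b, which then recruit a type I receptor such as Acvr1b (ALK4) and lead to phosphorylation of Smad2 and Smad3. Follistatin (Fst) and follistatin-like 3 (Fstl3) bind these ligands outside the cell and keep them from the receptors. In skeletal muscle the pathway is best known through myostatin, which is made by myofibers and limits muscle mass.

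Libraries held 36088781 to 54679082 counts, and a count of 0 allows up to 3 counts, which is 0.0549 to 0.0831 CPM and covers counting error only. Levels are given as FPKM, the count scaled to exon length and library total. Fold changes are log2 values with standard errors (SE) from edgeR (TMM normalization, quasi-likelihood test), and a gene was called where the Benjamini-Hochberg adjusted p was under 0.05 and the absolute log2 fold change over 0.5. With 2 libraries against 2 an exact permutation test cannot give a two-sided p below 0.333. The muscles carried their labels: 8 fast fibre genes summed to 57019 to 101379 FPKM in the EDL libraries and 23679 to 43367 FPKM in the SOL libraries, and 8 slow fibre genes to 202 to 1726 FPKM and 35644 to 57846 FPKM. Pou5f1 rose in Cre+ EDL muscles by 9.63 after 2.5 days (adjusted p = 1.74e-05) and by 9.55 after 8.5 days (adjusted p = 1.86e-05) on the log2 scale, Sox2 by 8.64 and 8.71 (adjusted p = 4.1e-05 and 4.44e-05), Klf4 by 2.02 and 1.87 (adjusted p = 0.00319 and 0.0088), and Myc by 4.12 and 4.65 (adjusted p = 0.00016 and 0.000142). The Klf4 call was lost at 2.5 days without replicate 2 of the Cre+ muscles (1.30, adjusted p = 0.0509) and at 8.5 days without replicate 1 of the Cre- (1.49, adjusted p = 0.0904) or the Cre+ muscles (1.74, adjusted p = 0.0667). In SOL muscles Pou5f1 rose by 7.78 and 9.62 after 2.5 and 8.5 days (adjusted p = 0.00391 and 0.00165). Sox2 rose there by 5.99 and 5.59 (adjusted p = 0.0109 and 0.00828). Myc (2.18 and 2.37, adjusted p = 0.0971 and 0.056) and Klf4 (0.08 and -0.04) were not called in SOL muscles. At 5.5 days, replicate 1 of the Cre+ EDL muscles had 13.1 FPKM of the 4 factors together, against 109 FPKM in replicate 2. The Cre- EDL libraries of that day had 11.5 and 11.8 FPKM. In EDL muscles at 5.5 days Pou5f1 (9.59, adjusted p = 0.0225) and Sox2 (7.27, adjusted p = 0.046) were called higher. Klf4 (0.86) and Myc (2.94) were not called there. Without replicate 2 of the Cre+ muscles the Sox2 change was 3.06, so the sum alone does not show that replicate 1 lacked induction. With other settings or 1 library left out, the Pou5f1 call was kept in 27 fits and lost in 5. The Sox2 call was kept in 8 and lost in 24.

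In EDL muscles after 2.5 days of Dox, 3 of the 9 genes were called, where 24% of all genes tested were called: Gdf11 and Fstl3 rose and Acvr1b fell. After 8.5 days 2 of 9 were called, Gdf11 and Fstl3, both higher, where 14.1% of all genes were called. In SOL muscles edgeR called none of the 9 at either day, where 0.384% of all genes were called at 2.5 days and 0.631% at 8.5 days. In SOL muscles 2 of the 9 genes on each day had an unadjusted p under 0.05, beside 2053 and 1015 of the 15372 genes tested. DESeq2 on the same libraries called 1 of the 9 at each day, Gdf11. No setting called more than 541 of all genes at 2.5 days or 229 at 8.5 days in SOL muscles. The median log2 fold change of the 9 genes was 0.22 and -0.20 in EDL muscles at 2.5 and 8.5 days, beside -0.05 and -0.02 over all genes.

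**Figure D1:**
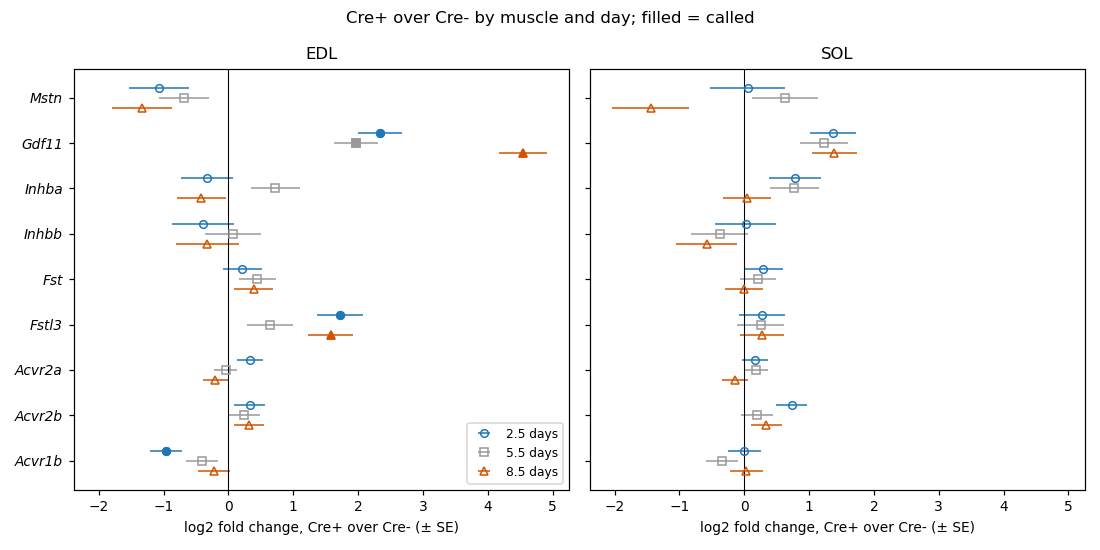
Log2 fold change of Cre+ over Cre- (x axis, ± SE) for each of the 9 genes in EDL (left) and SOL (right) muscles after 2.5 (circles), 5.5 (squares) and 8.5 days (triangles) of Dox; filled symbols were called. Gdf11 after 8.5 days in EDL muscles, at 4.54, lies farthest from 0, and no symbol of the SOL panel is filled.

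The promoters of Gdf11 and Fstl3, the genes called on both days in EDL muscles, and of Mstn, the relative of Gdf11, are shown because the results turn most on these genes. Each sequence is the 250 bases before the RefSeq start, 5′ to 3′ on the strand of the gene, in build GRCm38.p6, and the same start is given in the deposited table. Capitals mark matches on either strand to the E-box, CANNTG, and to the TATA box, which reads TATAAA.
Gdf11, chr10:128891719-128891968, minus strand: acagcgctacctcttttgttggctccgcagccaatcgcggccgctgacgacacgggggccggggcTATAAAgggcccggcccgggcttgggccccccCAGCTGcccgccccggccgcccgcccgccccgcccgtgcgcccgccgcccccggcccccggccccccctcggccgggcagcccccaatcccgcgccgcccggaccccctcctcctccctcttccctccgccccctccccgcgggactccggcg
Fstl3, chr10:79777024-79777273, plus strand: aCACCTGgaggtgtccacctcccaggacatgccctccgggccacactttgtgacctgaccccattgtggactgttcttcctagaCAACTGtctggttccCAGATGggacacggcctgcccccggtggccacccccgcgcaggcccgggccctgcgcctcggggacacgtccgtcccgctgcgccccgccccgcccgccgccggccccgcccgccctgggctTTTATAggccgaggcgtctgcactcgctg
Mstn, chr1:53061390-53061639, plus strand: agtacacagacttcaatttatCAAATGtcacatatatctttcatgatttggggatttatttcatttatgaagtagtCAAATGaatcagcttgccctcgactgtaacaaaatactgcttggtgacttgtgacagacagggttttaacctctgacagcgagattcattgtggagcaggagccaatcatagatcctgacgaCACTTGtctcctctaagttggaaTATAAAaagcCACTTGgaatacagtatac
The Gdf11 promoter had 81.2% G and C and 33 CG dinucleotides, that of Fstl3 71.2% and 22, and that of Mstn 38.4% and 3, beside medians of 52.4% and 6 over 32817 promoters. Gdf11 held 1 match to CANNTG, Fstl3 3 and Mstn 4, and 66.2% of all promoters held at least 1. TATAAA began at position -29 from the start in Mstn and at -185 in Gdf11, both on the strand of the gene, and the match at -29 in Fstl3 was on the opposite strand, and 12.4% of all promoters held it. The Myc and Max E-box CACGTG, which is also a match to CANNTG, was in none of these sequences and in 6.02% of all promoters. Among the 8 promoters at hand it was in that of Acvr1b alone, whose RefSeq start differed from the start in the deposited table. The octamer ATGCAAAT, the form that Oct4 binds, and the Klf box GGGTGTGG were likewise in none of these sequences, and 1.6% and 3.19% of all promoters held them. A match or its absence describes only the letters of this window. Of the 9 genes, 8 had a promoter in the RefSeq table, all but Fst.

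Gdf11 (chromosome 10, 128880524 to 128891718) showed the largest difference of the 9 genes between Cre+ and Cre- EDL muscles. Its level in Cre- EDL muscles was 2.07 and 1.62 FPKM at 2.5 days, 1.82 and 1.17 FPKM at 5.5 days, and 2.80 and 1.76 FPKM at 8.5 days. In Cre+ EDL muscles it was 14.5 and 8.65 FPKM at 2.5 days, 5.66 and 7.25 FPKM at 5.5 days, and 61.4 and 58.4 FPKM at 8.5 days. Every Cre+ EDL library lay above every Cre- EDL library, and the 8.5-day libraries, with 18985 and 16152 counts of Gdf11, stood far above those of the other days. The log2 fold change was 2.34 (SE 0.34, adjusted p = 0.000367) at 2.5 days and 4.54 (SE 0.37, adjusted p = 1.42e-05) at 8.5 days. Both calls were made under every alternative setting and with each library left out in turn, with log2 fold changes from 1.86 to 2.70 at 2.5 days and from 4.26 to 4.89 at 8.5 days.

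The Gdf11 change was larger at 8.5 than at 2.5 days by 2.21 on the log2 scale (SE 0.46), which did not pass the adjustment over all genes (adjusted p = 0.212; unadjusted p = 0.000402). For this difference between days edgeR called 0 of the 9 genes and 0% of all genes tested. An unadjusted p under 0.05 was found for 1 of the 9 and 1469 of all, and DESeq2 on the same libraries called 1 of the 9, Gdf11 (adjusted p = 0.00196), and 143 of all. Without replicate 1 of the Cre+ EDL muscles at 2.5 days, edgeR called Gdf11 as well (2.69, adjusted p = 0.0146).

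In SOL muscles Gdf11 started from a lower level. Cre- SOL muscles had 0.568 and 0.916 FPKM at 2.5 days, 0.388 and 0.402 FPKM at 5.5 days, and 1.05 and 0.879 FPKM at 8.5 days, and Cre+ SOL muscles had 2.74 and 1.51, 1.20 and 0.739, and 2.29 and 2.90 FPKM. On each day both Cre+ libraries were above both Cre- libraries of that day. The log2 fold changes were 1.37 (SE 0.35, adjusted p = 0.129), 1.23 (SE 0.37, adjusted p = 1) and 1.39 (SE 0.34, adjusted p = 0.153), and edgeR called none of them. DESeq2 on the same libraries called the change at 2.5 days (adjusted p = 0.00514) and at 8.5 days (adjusted p = 0.00402).

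The difference between the muscles was tested directly. At 8.5 days the Gdf11 change in EDL muscles exceeded that in SOL muscles by 3.15 on the log2 scale (SE 0.48, adjusted p = 0.0153), and Gdf11 was the only 1 of the 9 genes called, where 0.592% of all genes were called. With EDL and SOL libraries of the same genotype, day and replicate number as a block the adjusted p was 0.00177, and with a block by replicate number within muscle and day, which the libraries did not bear out as pairs, the call was lost (3.19, adjusted p = 0.0802). The call was lost without replicate 1 of the Cre- EDL (3.50, adjusted p = 0.0667), of the Cre- SOL (2.96, adjusted p = 0.0531) or of the Cre+ EDL muscles (3.17, adjusted p = 0.0737), and without replicate 2 of the Cre+ SOL muscles (3.37, adjusted p = 0.0947). At 2.5 days the difference was 0.97 (SE 0.48, adjusted p = 0.271). There edgeR called none of the 9 genes, where 4.25% of all genes were called. An unadjusted p under 0.05 was found for 2 of the 9 and for 3221 of the 15372 genes tested. DESeq2 on the same libraries called 1 of the 9, Fstl3. No setting other than leaving out a library called more than 1459 of all genes.

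The level of Gdf11 and that of the 4 factors of the cassette can be set side by side in each library. At 2.5 days, replicate 1 of the Cre+ EDL muscles had 74.5 FPKM of Pou5f1, Sox2, Klf4 and Myc together and 14.5 FPKM of Gdf11, and replicate 2 had 261 FPKM of the factors and 8.65 FPKM of Gdf11. At 5.5 and 8.5 days the order was the other way: 13.1 FPKM of the factors stood with 5.66 of Gdf11 and 109 with 7.25 at 5.5 days, and 205 with 58.4 and 254 with 61.4 at 8.5 days. In Cre+ SOL muscles the library with less of the factors had more Gdf11 on all 3 days, with 32.4 FPKM of factors and 2.74 of Gdf11 against 44.2 and 1.51 at 2.5 days, 8.43 and 1.20 against 15.4 and 0.739 at 5.5 days, and 31.3 and 2.90 against 57.8 and 2.29 at 8.5 days. At 5.5 days both Cre+ SOL sums lay below those of the Cre- SOL libraries, 16.1 and 15.7 FPKM, and edgeR called none of the 4 factors. With 2 libraries a group the order of the libraries was not tested.

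**Figure D2:**
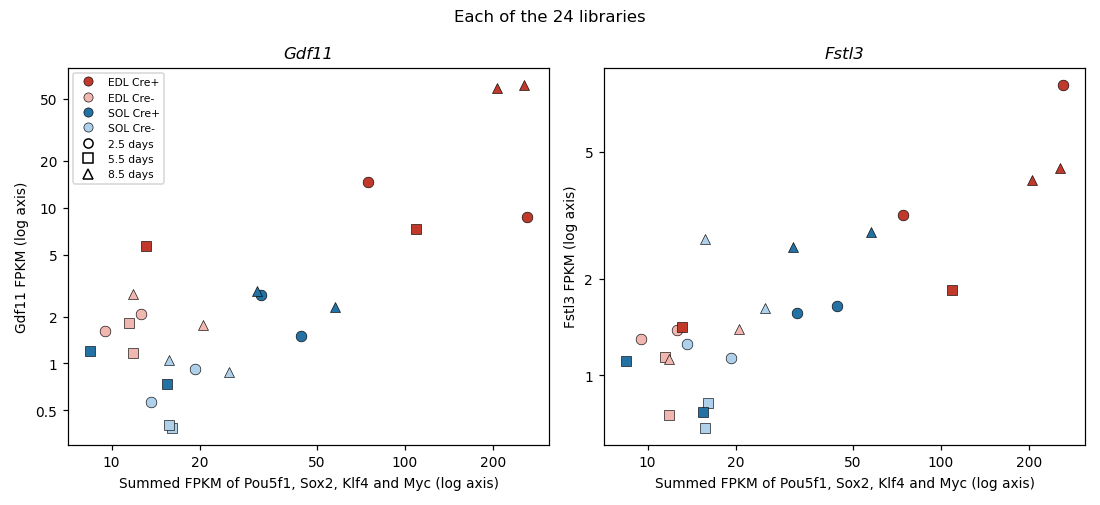
Level of Gdf11 (left) and Fstl3 (right) in FPKM against the summed FPKM of Pou5f1, Sox2, Klf4 and Myc in each of the 24 libraries, on log axes; colours give muscle and genotype and symbols the day. The Cre+ EDL square at 13.1 FPKM of the factors has 5.66 FPKM of Gdf11 and 1.41 FPKM of Fstl3, and the Cre+ EDL circle at 261 FPKM has the highest Fstl3 level, 8.10 FPKM.

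Gdf11 was the only 1 of the 9 genes called in EDL muscles at 5.5 days, with a log2 fold change of 1.96 (SE 0.34, adjusted p = 0.0225), where 0.304% of all genes were called. Without replicate 1 of the Cre+ muscles, the library with few factor counts, it was 2.14 (adjusted p = 0.011). The call was lost without replicate 2 of the Cre+ muscles (1.77, adjusted p = 0.183) and without replicate 1 (2.32, adjusted p = 0.135) or 2 (1.69, adjusted p = 0.38) of the Cre- muscles. It was also lost in fits of the 4 EDL libraries (1.99, adjusted p = 0.106) or all 8 libraries of that day (1.96, adjusted p = 0.0668) and with a replicate block by number (1.98, adjusted p = 0.111). In SOL muscles at 5.5 days edgeR called 0 of the 9 and 0% of all genes. There 1 of the 9 and 597 of all genes had an unadjusted p under 0.05, and DESeq2 on the same libraries called 0 of both.

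Mstn (chromosome 1, 53061640 to 53068079), which encodes myostatin, was high in EDL and low in SOL muscles in both genotypes. Cre- EDL muscles had 18.7 and 11.9 FPKM at 2.5 days, 19.1 and 21.2 FPKM at 5.5 days, and 18.1 and 13.9 FPKM at 8.5 days, and Cre+ EDL muscles had 10.4 and 7.79, 15.3 and 12.4, and 6.85 and 7.54 FPKM. Both Cre+ libraries lay below both Cre- libraries of their day on all 3 days. The log2 fold changes were -1.07 (SE 0.46, adjusted p = 0.103) at 2.5 days, -0.68 (SE 0.39, adjusted p = 0.704) at 5.5 days and -1.33 (SE 0.46, adjusted p = 0.0722) at 8.5 days, and none was called. The calls at 2.5 and 8.5 days depended on which libraries shared the estimate of the spread. In a fit of the 4 EDL libraries of a day alone, edgeR gave adjusted p = 0.046 at 2.5 days and adjusted p = 0.0108 at 8.5 days. Leaving out replicate 1 of the Cre- SOL muscles at 8.5 days gave adjusted p = 0.00715 and 0.00438 for the same EDL comparisons, and leaving out replicate 2 gave adjusted p = 0.00741 and 0.00462. DESeq2 on the 4 EDL libraries of a day called Mstn on all 3 days, with adjusted p = 0.00214, 0.0127 and 5.05e-07.

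In SOL muscles Mstn was low. Its counts were between 25 and 135 in the 12 libraries, or 0.223 to 1.30 FPKM. The Cre- libraries of 8.5 days held both the lowest and the highest of these values, 0.223 and 1.30 FPKM, and the Cre+ libraries of that day had 0.228 and 0.350 FPKM. The log2 fold change of -1.45 (SE 0.59, adjusted p = 0.649) turned to 0.39 without replicate 1 of the Cre- muscles and moved to -2.26 (adjusted p = 0.0364) without replicate 2, so 1 library decided its direction.

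Both related ligands can be read as a ratio of their levels. In Cre- EDL libraries Gdf11 had 0.0551 to 0.155 times the FPKM of Mstn. In Cre+ EDL libraries the ratio was 1.40 and 1.11 at 2.5 days, 0.369 and 0.584 at 5.5 days, and 8.97 and 7.75 at 8.5 days. Gdf11 was thus above Mstn in the Cre+ EDL libraries of 2.5 and 8.5 days and below it in those of 5.5 days and in all Cre- EDL libraries. In Cre- SOL libraries the ratio ranged from 0.806 to 3.95, and in Cre+ SOL libraries from 1.07 to 10.1. These ranges overlapped over the days together, but within each day both Cre+ SOL libraries lay above both Cre- SOL libraries (5.19 and 2.36 against 1.21 and 1.69 at 2.5 days, 1.85 and 1.07 against 0.876 and 1.05 at 5.5 days, and 10.1 and 8.27 against 0.806 and 3.95 at 8.5 days). The Mstn levels in these ratios rest on 25 to 135 counts.

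**Figure D3:**
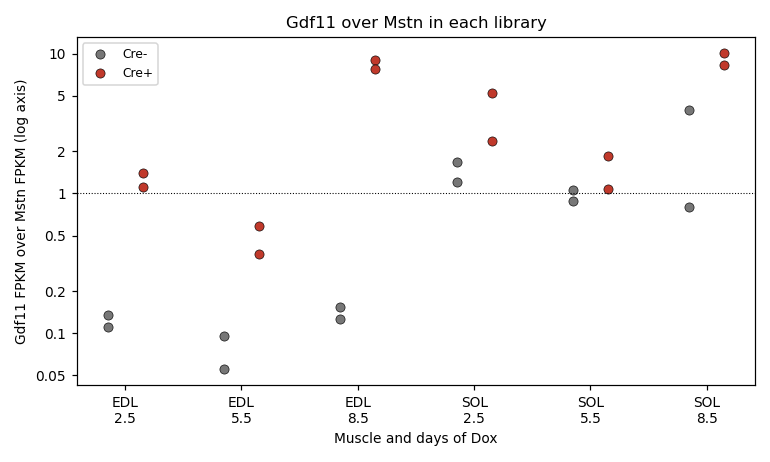
Ratio of Gdf11 FPKM to Mstn FPKM in each library (log y axis) by muscle and days of Dox (x axis) for Cre- (grey) and Cre+ (red) muscles; the dotted line marks equal levels. All 6 Cre- EDL libraries lie at or below 0.155 and the Cre+ EDL libraries of 8.5 days at 8.97 and 7.75.

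The activin subunits were the lowest of the 9 genes in EDL muscles. Inhba (chromosome 13, 16011851 to 16031609), which encodes the beta A subunit, ranged from 0.138 to 0.613 FPKM over the 24 libraries, and Inhbb (chromosome 1, 119415463 to 119422248), which encodes the beta B subunit, from 0.338 to 1.06 FPKM. These levels rest on 34 to 187 counts and 58 to 181 counts. Neither was called for Cre+ against Cre- in any muscle or day. In SOL muscles the highest Inhba levels of both genotypes were those of 8.5 days. The Cre- libraries had 0.138 and 0.184 FPKM at 2.5 days, 0.156 and 0.159 FPKM at 5.5 days, and 0.438 and 0.562 FPKM at 8.5 days. The Cre+ SOL libraries had 0.369 and 0.245, 0.332 and 0.230, and 0.458 and 0.591 FPKM. The days were not tested against each other within a genotype.

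**Figure D4:**
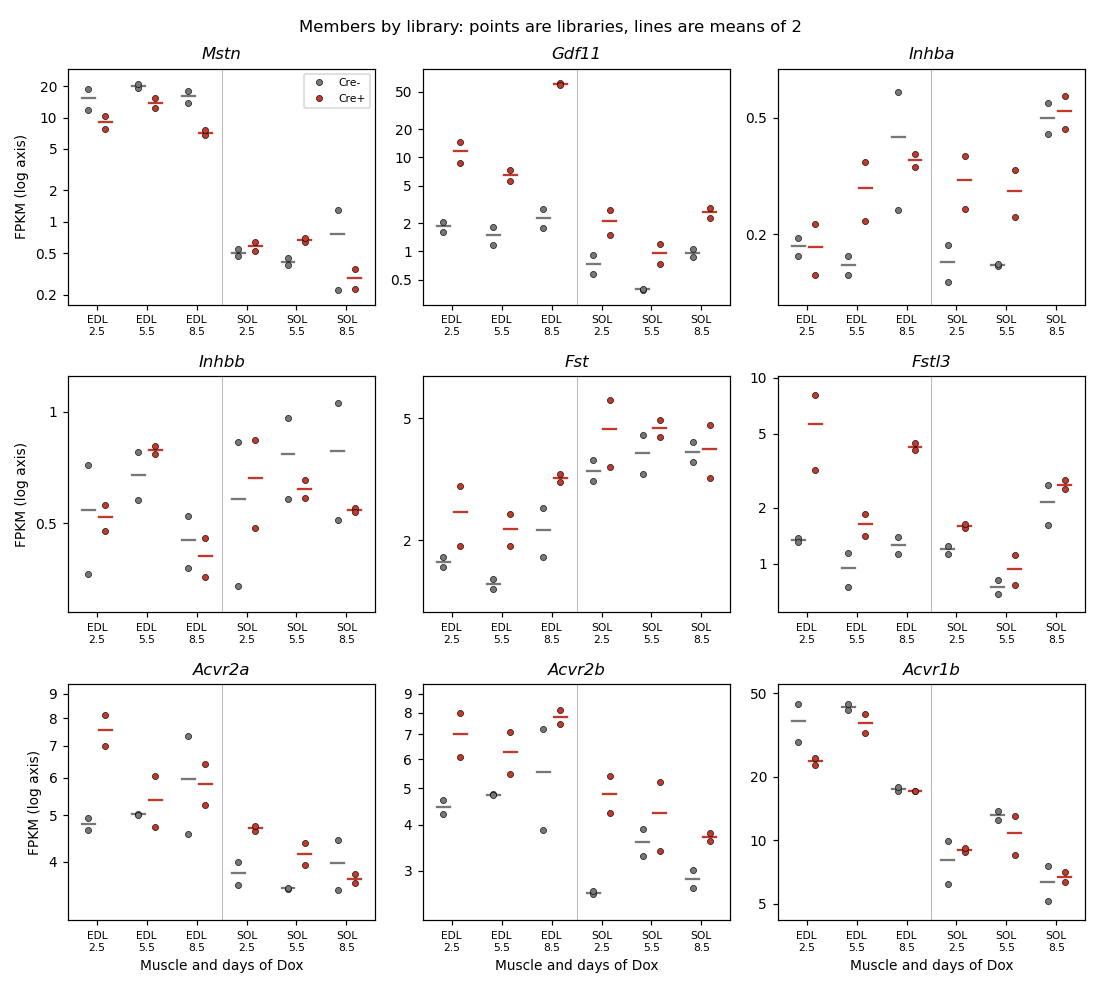
FPKM (log y axis) of each of the 9 genes by muscle and days of Dox (x axis) in Cre- (grey) and Cre+ (red) muscles; points are libraries and lines are means of 2 libraries. Gdf11 in Cre+ EDL muscles at 8.5 days (61.4 and 58.4 FPKM) stands apart from all other groups, and Mstn separates the EDL libraries (6.85 to 21.2 FPKM) from the SOL libraries (0.223 to 1.30 FPKM).

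Of the 2 inhibitors, Fstl3 rose and Fst was not called. Fstl3 (chromosome 10, 79777274 to 79782630) had 1.38 and 1.30 FPKM in Cre- EDL muscles at 2.5 days, 1.14 and 0.749 FPKM at 5.5 days, and 1.12 and 1.39 FPKM at 8.5 days. Cre+ EDL muscles had 3.17 and 8.10 FPKM at 2.5 days, 1.41 and 1.85 FPKM at 5.5 days, and 4.44 and 4.09 FPKM at 8.5 days. Each Cre+ library lay above both Cre- libraries of its day. On each day the Cre+ EDL library with more of the induced factors also had more Fstl3, an order that was not tested. The log2 fold change was 1.72 (SE 0.35, adjusted p = 0.003) at 2.5 days and 1.58 (SE 0.35, adjusted p = 0.00962) at 8.5 days, and at 5.5 days it was 0.64 (SE 0.35, adjusted p = 0.679). Without replicate 2 of the Cre+ muscles the change at 2.5 days was 0.96 and still called (adjusted p = 0.0442). The call at 8.5 days was lost without replicate 1 of the Cre+ muscles (1.57, adjusted p = 0.0593) or of the Cre- muscles (1.42, adjusted p = 0.084).

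Fstl3 in SOL muscles had 1.25 and 1.13 FPKM in Cre- and 1.56 and 1.64 FPKM in Cre+ mice at 2.5 days, and 2.66 and 1.62 FPKM in Cre- and 2.81 and 2.51 FPKM in Cre+ mice at 8.5 days. At 8.5 days the genotypes overlapped. The Cre+ SOL library with more of Pou5f1, Sox2, Klf4 and Myc together had more Fstl3 at 2.5 and 8.5 days and less at 5.5 days. The change in EDL exceeded that in SOL muscles by 1.45 (SE 0.50, adjusted p = 0.116) at 2.5 days and by 1.31 (SE 0.49, adjusted p = 0.319) at 8.5 days, and edgeR called neither. Exons of Prss57 lie on the opposite strand within the Fstl3 locus, and whether the counting used strand is not stated, but Prss57 had at most 6 counts in any library.

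Fst (chromosome 13, 114452262 to 114458951) was higher in SOL than in EDL muscles. It ranged from 1.39 to 2.54 FPKM over the 6 Cre- EDL libraries, from 1.92 to 3.28 FPKM over the 6 Cre+ EDL libraries, from 3.11 to 4.41 FPKM over the 6 Cre- SOL libraries and from 3.19 to 5.73 FPKM over the 6 Cre+ SOL libraries. Over the days together the Cre+ and Cre- ranges overlapped in both muscles. Within each day both Cre+ EDL libraries lay above both Cre- EDL libraries, with 3.01 and 1.92 against 1.77 and 1.64 FPKM at 2.5 days, 2.44 and 1.92 against 1.5 and 1.39 FPKM at 5.5 days, and 3.09 and 3.28 against 2.54 and 1.77 FPKM at 8.5 days. On the TMM scale the log2 fold changes were 0.22 (SE 0.31, adjusted p = 0.636), 0.45 (SE 0.29, adjusted p = 0.755) and 0.39 (SE 0.30, adjusted p = 0.433), and none was called. The value at 2.5 days turned to -0.20 without replicate 1 of the Cre+ muscles. In SOL muscles the genotypes overlapped on each day. An antisense gene, Gm47040, overlaps its exons in GENCODE.

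Among the receptors, Acvr1b (chromosome 15, 101174125 to 101212601) was called in EDL muscles at 2.5 days only. It had 44.6 and 29.2 FPKM in Cre- and 24.6 and 22.8 FPKM in Cre+ muscles at 2.5 days, and 17.2 and 17.9 FPKM in Cre- and 17.1 and 17.1 FPKM in Cre+ muscles at 8.5 days. The level of the Cre- libraries was thus itself lower at 8.5 days, below all Cre+ libraries of 2.5 days. At 5.5 days the Cre- muscles had 41.7 and 44.5 FPKM and the Cre+ muscles 32.2 and 39.7 FPKM. The log2 fold change was -0.96 (SE 0.25, adjusted p = 0.0117) at 2.5 days and -0.22 (SE 0.25, adjusted p = 0.616) at 8.5 days. The call was lost without replicate 1 of the Cre- muscles (-0.66, adjusted p = 0.127) or replicate 2 of the Cre+ muscles (-0.87, adjusted p = 0.102). The difference from the change in SOL muscles at 2.5 days was -0.97 (SE 0.35, adjusted p = 0.137), and with EDL and SOL libraries of the same number as a block it was -0.99 and called (adjusted p = 0.037). In SOL muscles Acvr1b ranged from 5.16 to 13.8 FPKM in Cre- and from 6.33 to 13.1 FPKM in Cre+ libraries, and the genotypes overlapped.

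The type II receptors were not called for Cre+ against Cre- in any muscle or day. In EDL muscles at 2.5 days Acvr2a (chromosome 2, 48814109 to 48903264) had 4.67 and 4.94 FPKM in Cre- and 8.14 and 7.01 FPKM in Cre+ mice, and Acvr2b (chromosome 9, 119402178 to 119442148) had 4.66 and 4.27 FPKM and 7.96 and 6.06 FPKM. The libraries did not overlap in FPKM, but on the TMM scale the log2 fold changes were 0.33 (SE 0.20, adjusted p = 0.24) and 0.33 (SE 0.24, adjusted p = 0.332). When counts were scaled by library size without TMM they were 0.66 (adjusted p = 0.0207) and 0.65 (adjusted p = 0.0421), both called, and the median of all genes moved from -0.05 to 0.28. The same scaling raised the share of higher genes among all genes called from 57.5% to 87.3% at 2.5 days and from 54% to 78.3% at 8.5 days. In SOL muscles at 2.5 days Acvr2b had 2.60 and 2.65 FPKM in Cre- and 5.39 and 4.29 FPKM in Cre+ mice. Its log2 fold change there was 0.73 (SE 0.24, adjusted p = 0.212). DESeq2 on these 4 libraries called it (adjusted p = 0.00229). Exons of Orc4, with 586 to 1011 counts in a library, overlap those of Acvr2a on the opposite strand.

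At 2.5 days several other marker lists moved in Cre+ EDL muscles together with Gdf11, Fstl3 and Acvr1b, where 1566 of the 15372 genes tested were called lower. The endothelial list was lower in 5 of 6 genes (102.5 to 108.6 FPKM summed, against 124.2 to 138.3 in Cre-), the smooth muscle list in 3 of 6 (132.9 to 140.4 against 153.4 to 157.8 FPKM), the neuromuscular junction list in 4 of 6 (19.9 to 31.4 against 40.0 to 46.2 FPKM) and the fast fibre list in 5 of 8 (57019 to 72681 against 90894 to 101379 FPKM). At 8.5 days 2 fast fibre genes and 1 junction gene were lower and no endothelial or smooth muscle gene was called, where 999 of 15372 genes were called lower. None of the 6 genes each of the satellite cell, fibroblast, macrophage, Schwann cell, adipocyte and tendon lists, and none of the 8 slow fibre genes, was called on either day. At 8.5 days the FPKM sums of 3 of these lists were higher in both Cre+ than in both Cre- EDL libraries. They were 20.2 to 21.9 against 13.8 to 16.7 FPKM for satellite cells. For fibroblasts they were 1590 to 2243 against 1196 to 1502 FPKM, and for tendon 832 to 962 against 494 to 604 FPKM. FPKM rests on library totals without TMM. Scaling by library size alone put the median change in this comparison at 0.16 on the log2 scale, against -0.02 with TMM. The sums were not recomputed with TMM, so whether the genotypes stay apart on that scale was not tested. No gene of these lists was at or under 3 counts in both libraries of a group. In SOL muscles no gene of any marker or fibre list was called at 2.5 or 8.5 days, where 0.384% and 0.631% of all genes were. The part of these changes in the values of the 9 genes was not tested.

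The muscles were compared over both days, with 4 libraries against 4, where the genotypes were compared day by day with 2 against 2, so the numbers of calls are not comparable. Over the Cre- libraries of 2.5 and 8.5 days, 6 of the 9 genes were called between the muscles, where 21.9% of all genes were called. Mstn was higher in EDL muscles by 4.74 on the log2 scale (SE 0.39, adjusted p = 2.01e-06), Acvr1b by 1.92 (SE 0.18, adjusted p = 5.47e-06), Gdf11 by 1.37 (SE 0.25, adjusted p = 0.00102), Acvr2b by 0.95 (SE 0.17, adjusted p = 0.000989) and Acvr2a by 0.56 (SE 0.14, adjusted p = 0.00878). Fst was lower in EDL muscles, at -0.83 (SE 0.22, adjusted p = 0.0105). The call of Acvr2a was lost without replicate 1 of the Cre- EDL muscles at 8.5 days, where its change was 0.38, and with library size alone, where it was 0.47. In the same comparison 5 of 6 satellite cell, 6 of 6 adipocyte and 1 of 6 endothelial genes were lower in EDL muscles and 4 of 6 Schwann cell genes were higher.

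In Cre+ mice 8 of the 9 genes were called between the muscles, where 29.6% of all genes were called. The Gdf11 difference was 3.42 (SE 0.25, adjusted p = 6.32e-07), that of Mstn 4.23 (SE 0.40, adjusted p = 4.55e-06) and that of Acvr1b 1.31 (SE 0.18, adjusted p = 8.79e-05). Fstl3, which was not called in Cre- mice, was higher in EDL muscles by 1.17 (SE 0.24, adjusted p = 0.00191). Acvr2b (0.74, adjusted p = 0.00377) and Acvr2a (0.61, adjusted p = 0.00382) were higher in EDL muscles as well. Fst (-0.67, adjusted p = 0.022) and Inhba (-0.72, adjusted p = 0.0486) were lower. The call of Fst was lost when any 1 of 4 Cre+ libraries was left out, with values from -0.62 to -0.46, and that of Inhba in 12 of the 16 fits with 1 library left out. In Cre+ mice 4 of 6 satellite cell, 4 of 6 adipocyte, 6 of 6 endothelial and 3 of 6 smooth muscle genes were lower in EDL muscles and 3 of 6 Schwann cell genes were higher. Summed over the libraries of 2.5 and 8.5 days and both genotypes, the satellite cell list had 12.5 to 21.9 FPKM in EDL and 19.3 to 28.5 FPKM in SOL muscles, the adipocyte list 240.4 to 350.9 and 397.1 to 766.5 FPKM, and the endothelial list 102.5 to 138.3 and 150.1 to 209.3 FPKM. Their part in the differences of the 9 genes was not tested.

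**Figure D5:**
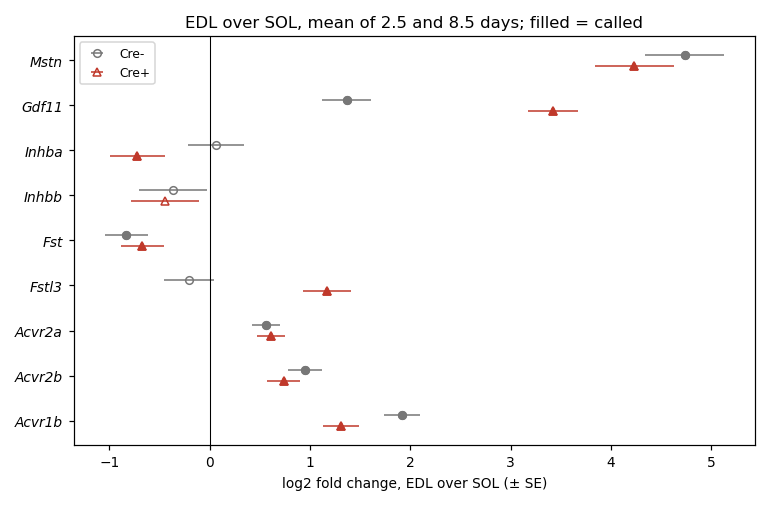
Log2 fold change of EDL over SOL muscles (x axis, ± SE) for each of the 9 genes in Cre- (grey circles) and Cre+ (red triangles) mice, as the mean of 2.5 and 8.5 days; filled symbols were called. Mstn lies at 4.74 and 4.23, and Gdf11 moves from 1.37 in Cre- to 3.42 in Cre+ mice.

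The order of levels per length changed with muscle and genotype. In Cre- EDL muscles at 2.5 and 8.5 days the highest were Acvr1b, with 27.2 ± 12.8 FPKM (SD, n = 4), and Mstn, with 15.6 ± 3.28 FPKM (SD, n = 4), followed by Acvr2a, Acvr2b, Gdf11, Fst, Fstl3, Inhbb and Inhba. The libraries of Acvr1b and Mstn, of Acvr2a and Acvr2b, of Gdf11 and Fst, and of Inhbb and Inhba overlapped. In Cre+ EDL muscles Gdf11, at rank 5 in the controls, had the highest mean over both days, 35.8 ± 28.0 FPKM (SD, n = 4), followed by Acvr1b with 20.4 ± 3.85 FPKM (SD, n = 4). This rank came from the 8.5-day libraries (61.4 and 58.4 FPKM), since at 2.5 days Gdf11 (14.5 and 8.65 FPKM) was below Acvr1b (24.6 and 22.8 FPKM) in both libraries. In Cre- SOL muscles Acvr1b was again the highest, at 7.19 ± 2.05 FPKM (SD, n = 4), and Mstn was next to the lowest, at 0.635 ± 0.467 FPKM (SD, n = 4). The Mstn libraries there (0.223 to 1.30 FPKM) overlapped those of Gdf11, Inhbb and Inhba, so its rank among these genes is not settled.

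Other genes of the TGF-beta superfamily pathway were followed in 5 lists of 79 genes, of which 74 were tested. In EDL muscles 16 of the 74 (21.6%) were called at 2.5 days, 6 higher and 10 lower, where 24% of all genes were called. At 8.5 days 6 of 74 (8.11%) were called, 4 higher and 2 lower, where 14.1% of all genes were called. None was called in SOL muscles at 2.5 or 8.5 days.

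Of the other ligands 1 of 14 was higher and 2 (Bmp4 and Inha) were lower at 2.5 days, and 1 was higher at 8.5 days. Tgfb3, a TGF-beta isoform and the most abundant of these ligands, rose on both days, by 1.10 (SE 0.13, adjusted p = 0.000113) and 1.75 (SE 0.13, adjusted p = 1.33e-05), from 13.3 ± 3.87 FPKM in Cre- to 45.3 ± 21.2 FPKM in Cre+ EDL muscles (SD, n = 4 each). Tgfb2, the next in abundance, was not called, with 5.20 ± 0.93 and 7.76 ± 1.59 FPKM. Of the 12 other receptors none was higher and 2 (Bmpr1a and Bambi) were lower at 2.5 days, and Bmpr1a was lower at 8.5 days. Bmpr1a, a type I receptor of bone morphogenetic proteins, changed by -0.72 (SE 0.24, adjusted p = 0.0408) and -1.11 (SE 0.24, adjusted p = 0.00878). Its call at 2.5 days was lost without replicate 1 (-0.70) or 2 (-0.74) of the Cre- EDL or replicate 2 (-0.57) of the Cre+ EDL muscles of that day, and also without any 1 of the 4 Cre+ SOL libraries, with adjusted p from 0.0517 to 0.26. It was lost as well with library size alone (-0.40, adjusted p = 0.235) and with a replicate block by number (-0.73, adjusted p = 0.0644). At 8.5 days the call was lost in a fit of the 4 libraries alone (-1.10, adjusted p = 0.0773) and without replicate 1 of the Cre- (-0.59, adjusted p = 0.0978) or the Cre+ muscles (-0.95, adjusted p = 0.11). Eng, the co-receptor endoglin, was not called, with 15.1 ± 2.22 and 15.4 ± 1.33 FPKM in Cre- and Cre+ EDL muscles.

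Of 17 extracellular inhibitors, binding proteins and processing enzymes, none was called higher at 2.5 days and none was called at 8.5 days. Decorin (Dcn) and Fstl1, the most abundant, had 447.2 ± 106.6 and 45.5 ± 9.55 FPKM in Cre- and 483.5 ± 132 and 50.4 ± 13.4 FPKM in Cre+ EDL muscles and were not called. Of 17 Smads and their regulators, 2 were higher (Smurf1 and Tgif1) and 3 lower (Skil, Smad3 and Smad7) at 2.5 days, and at 8.5 days Pmepa1 was higher and Smad3 lower. Smad3, which carries the signal of myostatin, Gdf11 and the activins to the nucleus, fell on both days, by 0.93 (SE 0.13, adjusted p = 0.000248) and 0.83 (SE 0.13, adjusted p = 0.00105) on the log2 scale, from 16.6 ± 4.01 to 10.7 ± 2.40 FPKM. Ppm1a, a phosphatase that acts on Smads, was the most abundant of that list and was not called, with 71.6 ± 12.4 and 106.3 ± 14.4 FPKM.

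Of 14 textbook target genes of Smad signalling, 3 were higher (Junb, Id4 and Cdkn1a) and 1 lower (Msx1) at 2.5 days, and Junb and Cdkn1a were higher at 8.5 days. Cdkn1a, which encodes the cell cycle inhibitor p21 and has regulators outside this pathway, rose by 2.61 (SE 0.21, adjusted p = 1.04e-05) and 2.09 (SE 0.21, adjusted p = 4.5e-05), from 22.2 ± 8.65 to 129.1 ± 29.0 FPKM. Junb, an AP-1 factor, rose by 1.78 (SE 0.30, adjusted p = 0.00101) and 1.03 (SE 0.29, adjusted p = 0.0312). The Junb call at 8.5 days was lost without replicate 1 of the Cre- muscles (0.65, adjusted p = 0.224) and without replicate 1 (adjusted p = 0.126) or 2 (adjusted p = 0.105) of the Cre+ muscles. Col1a1, a collagen chain and the most abundant target, was not called, with 443.4 ± 79.5 and 601.4 ± 206.9 FPKM.

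The genes whose log2 CPM followed each member most closely over the 24 libraries were named by Pearson's r, as a description, since the libraries share muscle and genotype. For Mstn these were Pvalb (0.987), Cib2 (0.984) and Cntnap2 (0.979), and for Gdf11 Neu2 (0.941), Tmem2 (0.937) and Mpp1 (0.936). Mical1 (0.933), Fam129b (0.922) and Ptprf (0.922) were closest to Fstl3, and Lmcd1 (0.914), B3galt2 (0.902) and Cda (0.895) to Fst. For Acvr1b they were Pfkfb4 (0.963), Epb41 (0.962) and Mylk2 (0.959), for Acvr2a Mtdh (0.95), Ttll7 (0.933) and Suco (0.92), and for Acvr2b Sav1 (0.923), Zcchc24 (0.88) and Zic1 (0.875). The values were lowest for the activin subunits, with Dpy19l3 (0.848), Lsp1 (0.848) and Dstn (0.845) for Inhba and Ces1d (0.797), Sncg (0.778) and Clip1 (0.753) for Inhbb.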

How the data were processed

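RNA-seq was analysed from 24 libraries of EDL and SOL muscles. The authors aligned reads to mm10 (GRCm38) with STAR 2.5.3a and used HOMER to count uniquely aligned reads over RefSeq exons; the deposited values are these raw counts per gene, without normalization and with replicates kept apart. The study names its replicates biologically independent samples; which mice they came from is not stated, so p-values measure the spread between these libraries. Whether the counting used strand is not given in the sources used here.

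Groups were taken from the labels. One fit held the 16 libraries of 2.5 and 8.5 days in 8 groups, with edgeR 4.0.16 in R 4.3.3 (TMM, quasi-likelihood test, minimum count 10, 15372 genes tested), and 5.5 days was taken from a fit of all 24 libraries (15478 genes). The p-values were Benjamini-Hochberg adjusted over all genes tested. FPKM was computed here from counts, exon lengths and total counts. DESeq2 1.42.0 was an alternative, as were 2 other scalings, 2 other filters, 2 other thresholds, other sets of libraries, 2 blocks and leaving out each library. The fits were tested on simulated data.

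Same-numbered EDL and SOL libraries of 1 genotype and day deviated together from their group means (r from 0.173 to 0.445 in 6 groups), so a block of these pairs was given beside results it changed; Cre+ and Cre- libraries did not (r from -0.169 to 0.058).

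Members and gene lists were chosen with earlier results of these data known. Beyond the 9 members and the 4 induced factors, the genes named with values were, for each of 5 pathway lists, up to 3 with the largest change called in EDL muscles on both days in the same direction without overlap of the genotypes' libraries, the 2 most abundant, and any gene called in SOL muscles; for each member the 3 likest genes with a mean of at least 1 FPKM were named (log2 CPM, prior count 2). Smad2 was not called in EDL muscles at 2.5 (0.38, adjusted p = 0.0298) or 8.5 days (0.34, adjusted p = 0.0702). Smad2 and the genes in a called count of 5 or fewer were named after their values were seen. Genes of the inhibitor list called lower at 2.5 days are not reported here. Promoter sequences are from RefSeq, build GRCm38.p6.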

Additional observations from a re-analysis of the deposited data

Results flagged for a closer look

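The Cre+ against Cre- change of Gdf11 at 8.5 days differed between the muscles by 3.15 on the log2 scale (EDL minus SOL; SE 0.48, adjusted p = 0.0153; the difference itself was tested with edgeR), with 61.4 and 58.4 FPKM in Cre+ EDL against 2.29 and 2.90 FPKM in Cre+ SOL libraries. The summed level of Pou5f1, Sox2, Klf4 and Myc also differed between these groups. It was 254 and 205 FPKM in Cre+ EDL and 57.8 and 31.3 FPKM in Cre+ SOL libraries. The Cre- SOL libraries of that day had 15.7 and 25.2 FPKM, and Klf4 and Myc were not called in SOL muscles. The part of the factors in the Gdf11 difference was not tested.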

How the results depend on the processing

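Of 1580 values of 61 log2 fold changes under other settings or with 1 library left out, 1469 kept direction and call, 83 lost the call, 26 gained it and 2 turned direction (Mstn in SOL muscles at 8.5 days, 0.39 without replicate 1 of the Cre- muscles, and -2.26 and called without replicate 2; Fst in EDL muscles at 2.5 days, -0.20 to 0.54 with 1 library left out, the former without replicate 1 of the Cre+ muscles). All 36 mean FPKM values of the 9 genes moved by less than 1 SD under TMM-scaled library size, where the SD spans both days. In EDL muscles each mean rose in Cre- (Mstn from 15.6 to 16.4 FPKM) and fell in Cre+ mice (Mstn from 8.14 to 7.12 FPKM).

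The count of called members moved as follows. With an absolute log2 fold change over 1, for which the share of all genes was not counted, it was 3 between the muscles in Cre- and 4 in Cre+ mice. With library size alone it was 5 in EDL muscles at 2.5 days. DESeq2 on the same libraries called 1 each in SOL muscles at 2.5 and 8.5 days, for the difference between muscles at 2.5 days and for that between days. DESeq2 on the libraries of a comparison called 2 in SOL muscles at 2.5 days, 1 at 8.5 days, 2 in EDL muscles at 5.5 days and 1 for the difference between days. Without a filter on low counts 1 was called in SOL muscles at 8.5 days. In EDL muscles at 5.5 days edgeR called 0 on the 4 libraries and 0 on the 8 of that day. A replicate block by number within muscle and day gave 0 there and 0 for the difference between muscles at 8.5 days, and changed no other count by over 1.5 times. A block of same-numbered EDL and SOL libraries gave 1 for that difference at 2.5 days. With 1 library left out the counts ranged from 0 to 1 for the differences between muscles at 2.5 and 8.5 days, between days, in SOL muscles at 8.5 days and in EDL muscles at 5.5 days, and from 1 to 3 in EDL muscles at 8.5 days. The cause was not tested.

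Over settings other than leaving out a library, genes called of all tested ranged from 2434 to 4816 (3684 as reported) in EDL muscles at 2.5 days and from 1021 to 2498 (2172) at 8.5 days, from 30 to 541 (59) and 0 to 229 (97) in SOL muscles, from 3 to 189 (47) in EDL and 0 to 34 (0) in SOL muscles at 5.5 days, from 202 to 1459 (654) and 0 to 368 (91) for the differences between muscles and from 0 to 143 (0) between days. With 2 libraries per group, Mstn in SOL muscles, with 25 to 135 counts, had standard errors of 0.58 at 2.5 days and 0.59 at 8.5 days.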
